A study of Populus tremula x Populus alba with 10 samples.

Results

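The deep nuclei are the 6869 barcodes, of 20406 deposited in 4 single-nucleus libraries, in which at least 500 nuclear gene IDs were detected by a unique molecular identifier (UMI), the tag that marks each captured RNA molecule. They came from the stem of wild-type hybrid poplar (Populus tremula x Populus alba, INRA clone 717 1B4), in 2 libraries of well-watered plants (control) and 2 libraries of plants under severe drought, each from internode 15 of 1 plant (the series' design text names internodes 14 and 15). Control plants were kept near field capacity (a soil moisture of 0.46 m3/m3), and drought plants were held at 15% of field capacity for 14 days. All plants had been raised in vitro as cuttings of a single clone and grown for 6 weeks in peat, so each group describes 1 genotype. The comparison asks which genes change in these nuclei under drought, and whether more nuclei hold the transcript or each positive nucleus holds more of it.

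A woody stem internode holds xylem, cambium, phloem, cortex and epidermis, and severe water deficit is known to slow cambial growth and to induce genes of abscisic acid signalling and osmotic protection. Nuclear RNA consists largely of transcripts that are being made or processed, and the cytoplasmic pool is mostly left behind. A higher level in a set of nuclei can come from more nuclei with the transcript, from more copies in each, or from a different mix of cell types. Gene IDs come without names in the files, so genes are given by ID, and the labelled tissue could not be checked against marker genes.

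The deep nuclei numbered 2938 and 2443 in control libraries 1 and 2, and 897 and 591 in drought libraries 1 and 2. They made up 66.2% and 42.9% of the control barcodes but 21.3% and 9.74% of the drought barcodes, so the groups did not overlap. An exact permutation test, two-sided, gave p = 0.33, which is the smallest value for 2 against 2 libraries. Fewer than 200 genes were detected in 97 and 1 of the control barcodes and in 1031 and 2327 of the drought barcodes. Within the deep nuclei, depth differed less, but the minimum of 500 genes sets the same lower end in each library. The median nucleus held 960.5 UMIs in control library 1 and 794 in control library 2. It held 817 in drought library 1 and 741 in drought library 2, so drought library 1 lay between the controls. The median number of detected genes was 790 and 682 in controls and 660 and 615 under drought, with no overlap. At the threshold, 336, 424, 198 and 159 nuclei had 500 to 549 genes (control 1 and 2, drought 1 and 2), and 349, 453, 175 and 208 barcodes had at least 450 but fewer than 500. Summed over the deep nuclei, gene UMIs came to 3690897 and 2374929 for controls, with 882089 and 514237 for drought. After each nucleus was thinned at random to 500 UMIs, the median number of genes was 448 and 453 for controls, with 435 and 443 for drought. Deep nuclei of different libraries shared 8 barcodes in all over the 6 pairs, and among all deposited barcodes a pair shared 18 to 56.

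**Figure D1:**
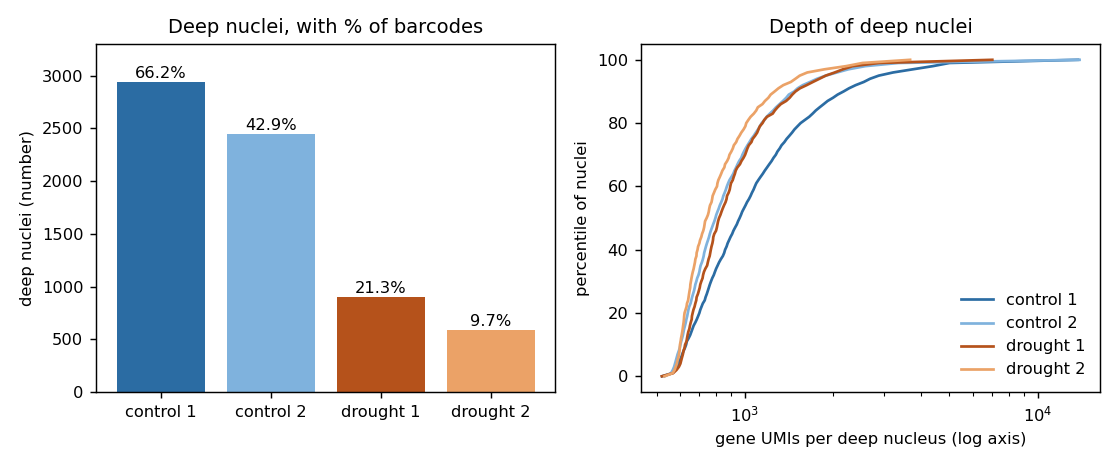
Left, number of deep nuclei in each library, with the share of the library's barcodes above each bar. Right, percentile of deep nuclei (vertical axis) against gene UMIs per nucleus (log axis), 1 line per library. The drought libraries hold 897 and 591 deep nuclei against 2938 and 2443 in controls, while drought 1 and control 2 have nearly the same depth curve.

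Ribosomal RNA outside the nuclear gene set was lower in both drought libraries in these nuclei. Of 25 features with ribosomal or transfer RNA names, rrnS and rrnL carried almost all UMIs, and these names are used for the small and large ribosomal RNA of plant organelles. In the deep nuclei rrnS stood at 2212 and 2935 counts per 1e6 UMIs (CPM) in controls and 307 and 619.8 CPM under drought. For rrnL the values were 1565 and 1407 CPM in controls, with 102 and 289.5 CPM under drought. Neither feature overlapped between groups. All 25 features together took 0.378% and 0.434% of control UMIs and 0.0409% and 0.0909% of drought UMIs, and the exact permutation test again gave p = 0.33, its smallest value. In the 6 clusters described further on the share ran from 0.256% to 0.435% and from 0.343% to 0.495% in the controls, and from 0.0241% to 0.0437% and from 0.0350% to 0.133% under drought. The part of this RNA in the gene results was not tested.

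In the deep nuclei, 680 of 18743 tested genes (3.63%) changed under drought, 282 higher (1.5%) and 398 lower (2.12%; edgeR quasi-likelihood test on UMIs summed per library, Benjamini-Hochberg adjusted p below 0.05, 2 against 2 libraries). Of the 31823 genes in the files, 13080 did not pass the filter on low counts, 4338 of them with 0 UMIs. Most called changes were large. The median log2 fold change was 1.56 among the higher genes and -1.47 among the lower genes, against 0.00168 over all tested genes, and the smallest called change was 0.82 in size. A change of at least 2-fold was found for 627 of the 680 genes, and at least 4-fold for 80 higher and 125 lower genes. In 16 of the lower genes both drought libraries held 0 UMIs, against 48 to 124 in the pooled controls. With 3 counts over the pooled drought libraries as the floor, the upper bound on their log2 change ran from -1.88 to -3.25, and the median of the lower genes was -1.47 with them at that bound. None of the 282 higher genes was at 0 in both controls. All 680 had libraries that did not overlap between groups in CPM, as did 49.7% of all tested genes. The number of calls depended on the drought libraries, with 159 without drought library 1, of which 64.8% were higher, and 371 without drought library 2. In all, 79 genes were called in every one of the 4 fits that left a library out, 39 higher and 40 lower.

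**Figure D2:**
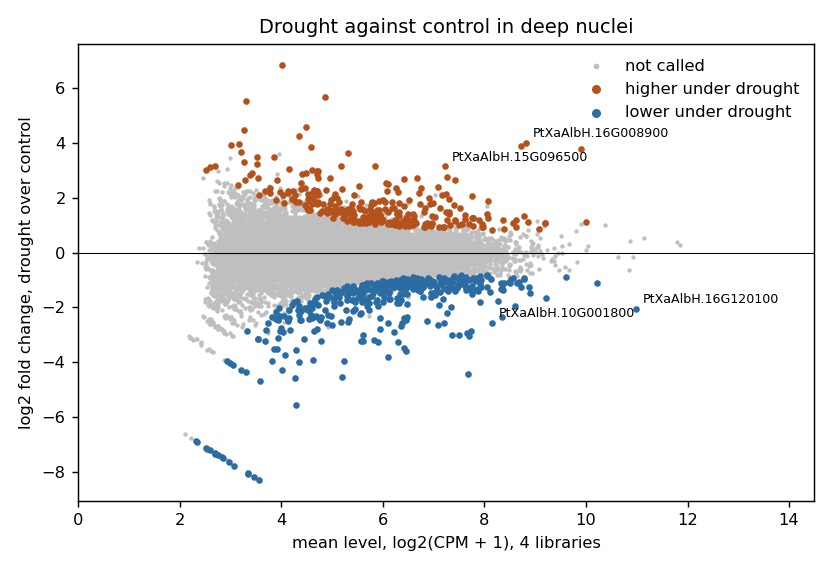
Log2 fold change of drought over control (vertical axis) against the mean level of the 4 libraries in log2(CPM + 1), with 1 point per tested gene and the 680 called genes in colour. The named risen genes lie between 3.15 and 4.0 and the named fallen genes between -2.56 and -2.05. The slanted groups of points at the bottom are genes with 0 UMIs in both drought libraries, whose fitted fold is no bound.

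Calls were most frequent among genes found in many nuclei. The levels here are the percentage of thinned nuclei with at least 1 UMI, averaged over the libraries of the group in which the gene was higher. Below 1% of nuclei, 51 of 5380 genes were called (0.948%), and their median change was 3.66 in size on the log2 scale. From 1% to 5%, 375 of 10969 genes were called (3.42%). From 5% to 10% it was 161 of 1874 (8.59%), and from 10% to 20%, 78 of 454 (17.2%), with median changes of 1.21 and 1.24 in size. From 20% to 50% of nuclei, 14 of 60 genes were called, 8 higher and 6 lower. Of the 6 genes above 50%, only PtXaAlbH.16G120100 was called. Fewer counts leave small changes undetectable in the low bins, so these shares follow depth as well.

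The change was then divided into the fraction of nuclei with the gene and the UMIs per positive nucleus, whose log2 changes add up to that of the mean. All nuclei were thinned to 500 UMIs for this, which left out none. Of the called genes, 656 had a positive nucleus in both groups and could be divided. The fraction carried a median of 96.5% of the log2 change, with quartiles of 91.0% and 100.7%, and over all tested genes the median was nearly the same at 96.1%, with wider quartiles of 80.2% and 110.6%. Among the higher genes the median change of the fraction was 1.39 and that of UMIs per positive nucleus 0.0888 on the log2 scale. Among the lower genes these were -1.36 and -0.0397. Over all tested genes they were -0.0171 and 0.0163. The UMIs per positive nucleus carried at least 25% of the change in 15 of the 656 genes, 10 higher and 5 lower, and in 3869 of 18690 tested genes. Over all tested genes this share divides by a log2 change that is often near 0. Its counts and quartiles there cannot be compared directly with those of the called genes. Much of the large share of the fraction follows from sparse counts, because most called genes were seen in few nuclei and then mostly as 1 UMI. The median called gene was found in 3.78% of nuclei in its higher group, and the median UMIs per positive nucleus was 1.09 over the 3676 genes with at least 20 positive nuclei in each library. The median share of the fraction was 95.1% for called genes found in under 1% of nuclei, 97.1% from 1% to 5%, 96.7% from 5% to 10%, 93.3% from 10% to 20% and 86.0% from 20% to 50%, and it was 65.6% for PtXaAlbH.16G120100.

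The parts were also compared with a uniform spread of the same UMIs over nuclei, the Poisson expectation, in which UMIs per positive nucleus rise with the mean alone. For the higher genes, the median change in UMIs per positive nucleus was 0.0888 against 0.0168 expected from the mean, and it exceeded expectation in 200 of 280 genes. For the lower genes the medians were -0.0397 and -0.0201, and the change exceeded expectation, in the direction of the gene, in 206 of 376. Over all tested genes this held for 10210 of 18690. These values are descriptions, with no test.

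**Figure D3:**
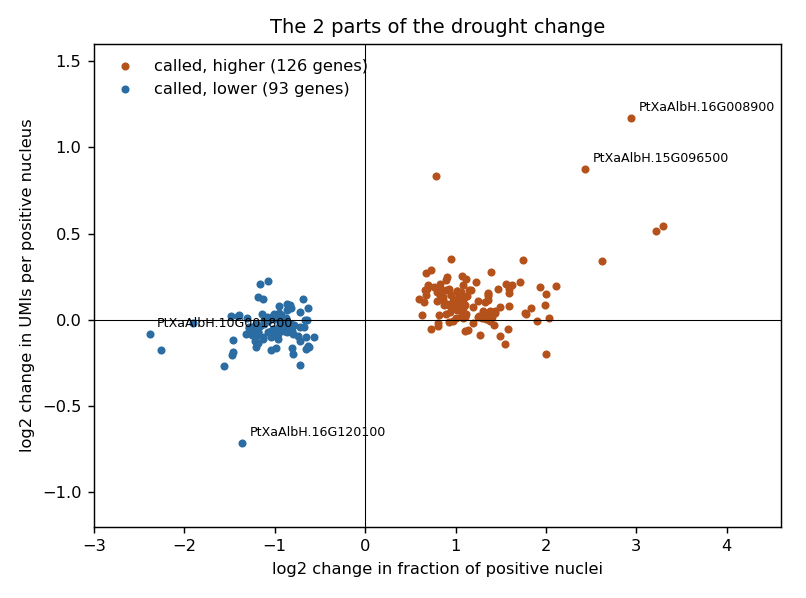
Log2 change in the fraction of positive nuclei (horizontal axis) against log2 change in UMIs per positive nucleus (vertical axis), for the 219 called genes with at least 20 positive thinned nuclei in each library. Most points lie near 0 on the vertical axis, and PtXaAlbH.16G008900, PtXaAlbH.15G096500 and PtXaAlbH.16G120100 lie away from it.

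Each part was tested on its own. The number of positive nuclei changed for 465 of 15752 genes (2.95%), 196 higher and 269 lower (edgeR, adjusted p below 0.05). This test and the test on UMIs used the same nuclei, in which a positive nucleus mostly held 1 UMI. Their shared calls and directions are therefore not independent. Of the 465 genes, 378 were among the 680 called by unthinned UMIs, each in the same direction. This is 55.6% of the 680 and 81.3% of the 465. The count depended on the random draw, with 308 for another seed, and on control library 2, with 255 without it. Without thinning 1275 genes were called, only 18.8% of them higher, against 42.2% with it. UMIs per positive nucleus changed for 0 of 3676 genes (0.0%) by limma on the log2 scale, with 295 genes at an unadjusted p below 0.05 and a lowest adjusted p of 0.608. No other tool was run on this measure. The fitted changes ran from -0.777 to 0.967 with a median SE of 0.0526. With at least 50 positive nuclei required in each library, 3 of 594 genes were called, 2 higher and 1 lower.

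PtXaAlbH.16G008900, the risen gene with the largest fold change among those with at least 20 positive nuclei in each library, was counted with 173 and 130 UMIs in the deep control nuclei, against 268 and 702 in the far fewer deep drought nuclei. Scaled to sequencing depth this was 48.4 and 55.9 CPM in controls (52.2 ± 5.2, SD, n = 2) and 304 and 1381 CPM under drought (843 ± 762, SD, n = 2). The drought libraries did not overlap with the controls but differed strongly from each other. The log2 fold change was 4.0 (SE 0.55, adjusted p 0.00558, edgeR), 2.54 without drought library 2 and 4.72 without drought library 1. Positive nuclei, after thinning, were 1.91% (exact 95% interval 1.44% to 2.47%) and 2.13% (1.59% to 2.78%) in controls. Under drought they were 8.58% (6.83% to 10.6%) and 22.5% (19.2% to 26.1%). Without thinning the percentages were 3.78% and 4.09% against 13.2% and 30.3%.

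The UMIs of PtXaAlbH.16G008900 were gathered in part of the nuclei. Each positive nucleus held 1.34 and 1.17 UMIs in controls against 1.90 and 3.17 in the drought libraries, with up to 19 and 23 UMIs in a drought nucleus. At the same mean, a uniform spread would have made 15.0% and 51.0% of the drought nuclei positive, against the 8.58% and 22.5% observed. The fraction carried 71.6% of the change. The number of positive nuclei rose (log2 2.90, SE 0.33, adjusted p 8.497e-05, edgeR), whereas the change per positive nucleus of 0.97 (SE 0.24) did not pass (adjusted p 0.608, limma). In drought library 2 the gene was found in 31.9% of the nuclei of cluster 1, 50.0% of the 18 nuclei of cluster 10 and 9.38% of cluster 4. Drought library 1 did not show this contrast, with 10.3% in cluster 1, 5.56% of the 18 nuclei of cluster 10 and 10.0% in cluster 4. Its cluster 5 had 0 positive among 54 nuclei. In controls the gene was found in 8.20% of the 61 and 10.6% of the 47 nuclei of cluster 10.

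PtXaAlbH.15G096500 was the risen gene with the next largest change per positive nucleus, among genes with at least 20 positive nuclei in each library. It was counted with 131 and 53 UMIs in controls, against 252 and 126 in the drought libraries. Its level was 36.7 and 22.8 CPM in controls and 286 and 248 CPM under drought, with no overlap. The log2 fold change was 3.15 (SE 0.26, adjusted p 0.000502, edgeR). Positive nuclei were 1.396% (exact 95% interval 1.00% to 1.89%) and 1.02% (0.663% to 1.51%) in controls. They were 6.80% (5.24% to 8.65%) and 6.26% (4.45% to 8.53%) under drought, and 2.79%, 1.596%, 11.1% and 10.2% in the same order without thinning. A positive nucleus held 1.29 and 1 UMIs in controls against 2.48 and 1.78 in the drought libraries, a change of 0.89 that did not pass (SE 0.19, adjusted p 0.608, limma). Cluster 1 held 69.5% and 66.7% of the UMIs of PtXaAlbH.15G096500 in the drought libraries, where it made up 36.9% and 31.3% of the nuclei. In controls it held 49.1% and 36.0% of the gene's UMIs and made up 24.3% and 24.2% of the nuclei. Of the 6 clusters described further on, cluster 7 had the highest percentage of positive drought nuclei. There the gene was found in 6 of 35 and 5 of 36 nuclei (17.1% and 13.9%). In cluster 1 it was found in 11.2% and 11.4% of drought nuclei, and in cluster 4 in 0 of 70 and 0 of 32.

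Among genes with at least 20 positive nuclei in each library, PtXaAlbH.10G001800 was the fallen gene with the largest fold change. It was counted with 1349 and 1352 UMIs in controls, against 51 and 56 in the drought libraries. Its level fell from 378 and 581 CPM to 57.8 and 110.2 CPM, and the log2 fold change was -2.56 (SE 0.32, adjusted p 0.00343, edgeR). Positive nuclei were 16.6% (exact 95% interval 15.3% to 18.0%) and 24.4% (22.7% to 26.2%) in controls and 2.45% (1.54% to 3.69%) and 5.41% (3.73% to 7.56%) under drought. Without thinning they were 32.1% and 39.3% against 4.68% and 8.29%. UMIs per positive nucleus stayed between 1.03 and 1.23 in the 4 libraries, and the fraction carried 96.6% of the change. Unlike the risen genes, PtXaAlbH.10G001800 was spread evenly. It was found in 13.5% to 19.5% and 18.4% to 28.7% of the control nuclei of the 6 clusters. Its control percentages of 16.6% and 24.4% were near the 17.1% and 25.1% of a uniform spread. Of 7819 tested genes with enough positive nuclei for a value, pooled over both controls, 21.9% differed less than 2-fold between these clusters. Of 316 called lower genes, 13.9% did. The median ratio of the highest to the lowest cluster was 3.07 for the tested genes and 4.68 for the called lower genes. Counting error alone raises this ratio in sparse genes, and most tested genes were found in fewer nuclei than PtXaAlbH.10G001800.

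PtXaAlbH.16G120100 was the fallen gene with the largest change per positive nucleus, again among genes with at least 20 positive nuclei in each library. It was found in 74.0% (exact 95% interval 72.4% to 75.6%) and 76.2% (74.4% to 77.9%) of thinned control nuclei. Under drought it was found in 16.2% (13.8% to 18.7%) and 42.3% (38.3% to 46.4%), and without thinning in 90.3%, 88.0%, 25.6% and 58.4% in the same order. Its level was 3113 and 3370 CPM in controls and 366 and 1214 CPM under drought, from 11117, 7843, 323 and 617 UMIs. The groups did not overlap, and drought library 2 lay nearer to the controls. The log2 fold change was -2.05 (SE 0.42, adjusted p 0.0294, edgeR), -3.15 without drought library 2 and -1.43 without drought library 1. DESeq2 did not call it (adjusted p 0.17), nor did edgeR on cluster 1 alone (adjusted p 0.0653).

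A positive nucleus held 2.15 and 2.29 UMIs of PtXaAlbH.16G120100 in controls and 1.18 and 1.42 under drought. Each value was near that of a uniform spread at the same mean, 2.0, 2.11, 1.098 and 1.33 UMIs in the order of the libraries. The fitted change of -0.78 per positive nucleus did not pass (SE 0.14, adjusted p 0.608, limma). In controls the gene was found in 62.7% to 78.0% and 70.8% to 78.8% of the nuclei of the 6 clusters, and in drought libraries in 11.4% to 22.9% and 36.2% to 46.9%. The drought libraries thus differed more from the controls, and from each other, than these clusters did within a library. The controls differed less from each other than their clusters did. Drought library 1 was lowest and drought library 2 next, as for PtXaAlbH.10G001800, rrnS and rrnL. Both genes were chosen with the drought libraries below both controls, so for them only the order within a treatment was free. In controls rrnL was higher in library 1, whereas rrnS and both genes were higher in library 2. The part of that RNA in these falls was not tested.

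**Figure D4:**
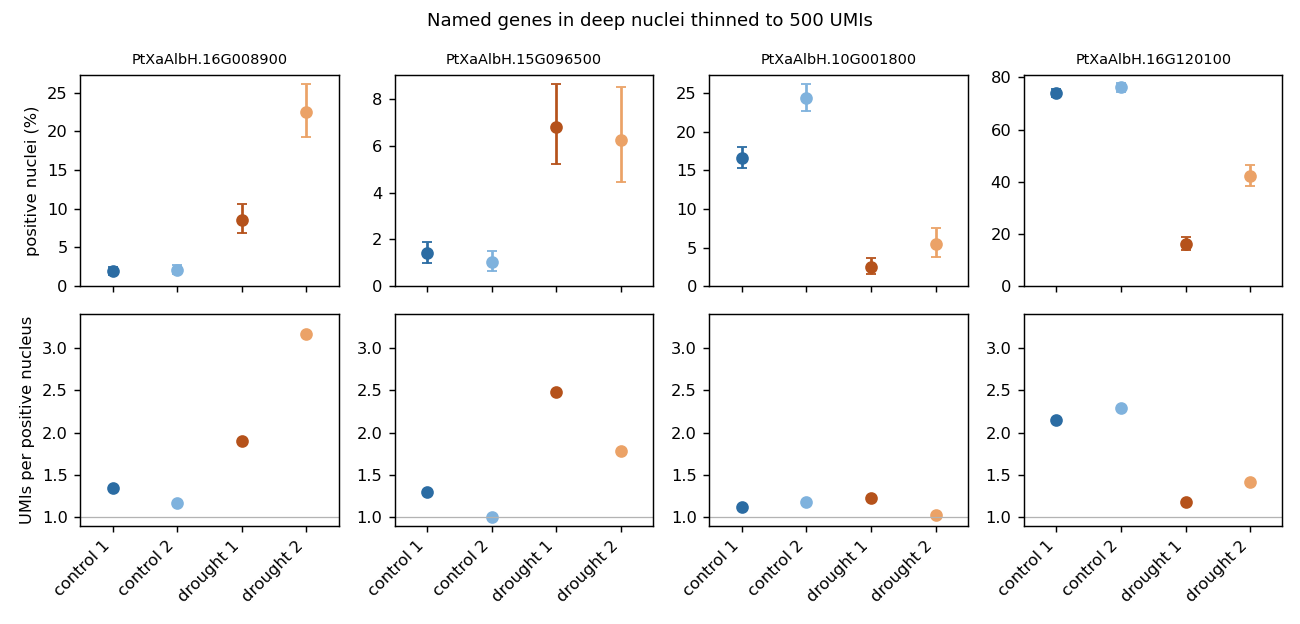
Percentage of deep nuclei positive for each named gene (top, with exact 95% intervals that cover counting error only) and UMIs per positive nucleus (bottom) in the 4 libraries, after thinning to 500 UMIs. Points are libraries, and the vertical scales of the top panels differ. The drought percentages reach 22.5% and 6.80% for the risen genes and fall to 2.45% and 16.2% for the fallen genes.

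Clustering of the deep nuclei, with the 680 called genes left out, gave 16 clusters. Cluster 1 held 26.5% of the nuclei, and 6 clusters (1 to 5 and 7) had at least 30 nuclei in each library. The clusters are numbered by size and carry no cell type name. Cluster 12 had a higher share under drought, with 0.647% and 1.51% of nuclei in controls and 2.90% and 2.88% under drought (19, 37, 26 and 17 nuclei). Its log2 ratio was 1.45 (SE 0.40, adjusted p 0.0173, edgeR on numbers of nuclei), and it was the 1 cluster called of 16. By edgeR, the single tool run, 0 clusters were called without control library 1, without drought library 1 or without drought library 2, where 1, 0 and 2 clusters had an unadjusted p below 0.05. Cluster 1 made up 24.3% of nuclei in control library 1, 24.2% in control library 2, 36.9% in drought library 1 and 31.3% in drought library 2, which did not pass (log2 0.49, SE 0.23, adjusted p 0.293, edgeR). Shares are relative, and they cover the barcodes above the gene minimum alone.

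Most called genes kept their direction within each of the 6 clusters, which is a description, since the same nuclei chose them. Among called genes with at least 20 UMIs in cluster 1, 249 of 253 higher genes and 364 of 365 lower genes kept their direction there, against 47.7% and 52.3% of all genes with as many UMIs that were higher and lower. In cluster 4, the lowest for higher genes, 92 of 107 kept it, with a median log2 change of 0.85, against 1.30 in cluster 1. For lower genes the lowest was cluster 7, with 169 of 184. Tested on its own, cluster 1 gave 83 calls among 12221 genes (0.679%), and the nuclei outside it gave 416 among 17409 (2.39%), both with edgeR.

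Whether the deep nuclei respond differently from shallower ones was tested within libraries. Shallow nuclei were the 10081 barcodes with at least 200 but fewer than 500 genes, and they gave 780 calls among 17049 genes (4.58%), 335 higher and 445 lower (edgeR). Both sets of nuclei share plants and libraries. The drought effect differed between them for 18 of 18056 genes (0.0997%; edgeR, term of depth class by drought with library as a block), with 1036 genes at an unadjusted p below 0.05. For 14 of the 18 the effect was more positive in deep nuclei, and 6 of the 18 were among the 680 called genes. The count was 6 without control library 1 and 9 without control library 2. For the named genes the difference of log2 fold changes, deep minus shallow, was 0.17 (SE 0.20) for PtXaAlbH.16G008900, 0.34 (SE 0.27) for PtXaAlbH.15G096500, -0.32 (SE 0.21) for PtXaAlbH.10G001800 and 0.17 (SE 0.11) for PtXaAlbH.16G120100, each with an adjusted p of 0.923 or above (edgeR).

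Bulk RNA sequencing of whole stem (3 libraries per treatment, made with a kit that selects polyadenylated RNA) gave separate samples that the choice of the 680 genes did not use. In bulk stem, fewer cells of a type and less RNA per cell cannot be told apart. Of the 680 genes, 658 were tested in bulk and 500 were called there, 76.0% of those tested (edgeR). The background is high, since bulk called 54.2% of its 26448 tested genes and 57.3% of the 18624 genes tested in both. In 457 of the 500 the direction was the same (168 higher, 289 lower), and in 43 it was opposite. The 457 are 67.2% of the 680 and 3.19% of the genes called in bulk. The share with the same direction over all genes tested in both was not counted. The median bulk log2 fold change was 0.90 for genes higher in deep nuclei and -1.08 for genes lower, against -0.0209 over all genes tested in both. Under 1 CPM in every bulk library were 7.29% of the lower genes and 1.06% of the higher genes, against 1.41% of all genes tested in deep nuclei.

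The named genes differed widely in bulk. PtXaAlbH.16G008900 was higher under drought in bulk, with 29.1, 38.9 and 48.0 CPM in controls and 98.4, 129 and 97.5 CPM under drought (log2 1.49, SE 0.20, adjusted p 0.00154, edgeR). PtXaAlbH.15G096500 rose as well, from 7.87, 5.47 and 5.91 CPM to 76.9, 10.7 and 57.1 CPM (log2 2.92, SE 0.66, adjusted p 0.00982, edgeR), and bulk drought library 2 stood far below the other drought libraries. PtXaAlbH.10G001800 had 0 counts in each of the 6 bulk libraries, where 3 counts would be 0.0521 to 0.0626 CPM. PtXaAlbH.16G120100 had 0, 19 and 28 counts in bulk controls and the same 0, 19 and 28 under drought (log2 0.20, SE 1.26, adjusted p 0.906, edgeR), against 11117 and 7843 UMIs in control nuclei. Bulk thus held too few counts of PtXaAlbH.10G001800 and PtXaAlbH.16G120100 to show a fall, and their falls were seen in nuclei alone. A difference between assays was not tested here.

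The genes that bulk RNA picks out were also followed through single deep nuclei. After thinning, the 3260 genes at least 2-fold higher in bulk took a median of 6.6% and 5.4% of the UMIs of a control nucleus and 8.2% and 9.6% of those of a drought nucleus. The 3167 genes at least 2-fold lower in bulk took a median of 11.2% and 13.0% in controls, and 8.2% in both drought libraries. The groups did not overlap in these medians. For the higher genes the 10th percentile of nuclei was 4.0% and 3.4% in controls and 5.2% and 5.8% under drought, and the 90th percentile was 11.6% and 8.4% against 12.2% and 15.0%. The upper tail of drought library 1 was not above that of control library 1, with 16.0% against 17.0% at the 99th percentile, and single nuclei overlapped widely between the treatments. For the genes lower in bulk the mean share was below both controls in both drought libraries in each of the 6 clusters, for example 18.4% and 19.5% against 16.0% and 14.9% in cluster 5. For the genes higher in bulk it was above both controls in each of the 6, with 4.25% and 3.79% against 5.30% and 6.26% in cluster 5 and 9.90% and 6.86% against 10.2% and 12.8% in cluster 1. Cluster 6, with too few nuclei in drought library 2 for a value, had 8.83% and 7.01% in controls and 8.69% in drought library 1, which lay between them.

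**Figure D5:**
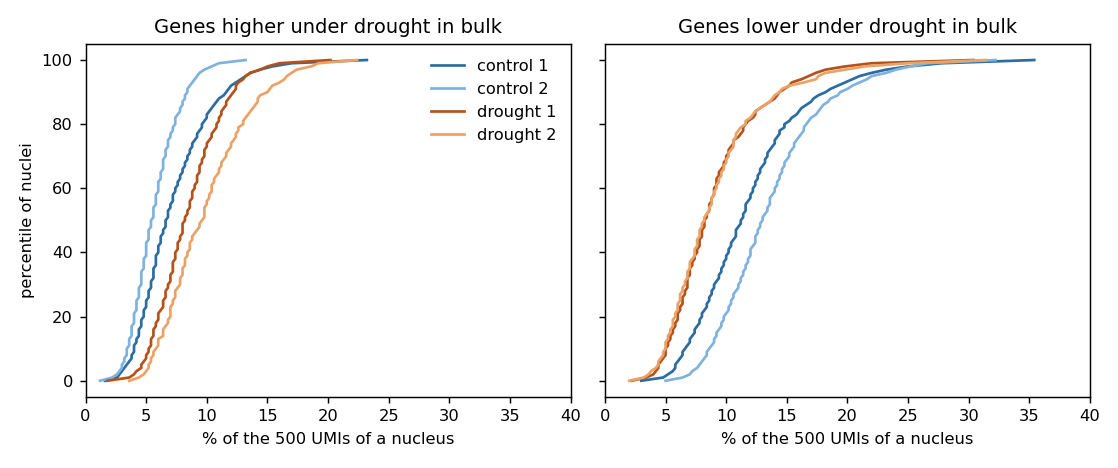
Percentile of deep nuclei (vertical axis) against the percentage of the 500 thinned UMIs of a nucleus that fell on genes at least 2-fold higher (left) or lower (right) under drought in bulk, 1 line per library. The drought medians of 8.2% and 9.6% lie to the right of the control medians of 6.6% and 5.4% on the left, where the lines of drought 1 and control 1 meet and cross in the upper tail, and both drought medians of 8.2% lie to the left of 11.2% and 13.0% on the right.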

How the data were processed

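Per the labels' protocols, 80000 stained nuclei per library were sorted and loaded on a Singleron GEXSCOPE chip, with 10000 targeted. The authors deposited nuclei matrices of raw UMI counts and a bulk table of raw read counts. HISAT2 is named in the submitters' processing notes. Not given in the sources used here are the counting tool, strand setting, genome build and barcode selection, so near-identical copies, overlapping genes and alleles are uncertain.

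The 25 ribosomal and transfer RNA features were kept out of gene tests and totals. Barcodes with at least 500 genes were kept, with no doublet caller. UMIs were summed per library, the replicate, and tested with edgeR 4.0.16 in R 4.3.3 (TMM scaling, filterByExpr). The SE of an edgeR log2 change is its size over the square root of F. CPM use the TMM-scaled totals. Positive nuclei were tested with edgeR without TMM and with the number of nuclei as offset. UMIs per positive nucleus (at least 20 positive nuclei in each library) were tested with limma 3.58.1. The scripts were tested on simulated data. Clusters (scanpy 1.11.5) used 2000 variable genes standardised within each library, 30 components, 15 neighbours and Leiden resolution 0.5. Intervals cover counting error only. Libraries of a group differed beyond sampling noise (chi-square per degree of freedom 4.53 in controls and 2.70 under drought). With 1 plant per library, p-values measure the spread between 2 plants a group.

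In each direction the text names the called gene with the largest log2 fold change and the one with the largest change per positive nucleus (the next one where these coincide), among genes with groups that do not overlap and at least 20 positive nuclei in each library. The comparison and its gene minimum were chosen with earlier results of these data known. DESeq2 1.42.0, limma-voom, other scalings, filters, gene minimums and libraries left out were alternatives. The analyses of cluster 1 and of bulk genes in single nuclei were chosen after seeing the data.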

Additional observations from a re-analysis of the deposited data

Results flagged for a closer look

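The drought effect differed between deep and shallow nuclei of the same libraries for 18 of 18056 genes, which was tested directly (edgeR, depth class by drought with library as a block). For 14 of them the effect was more positive in deep nuclei. The median size of the difference was 1.64 on the log2 scale over the 18 genes, against 0.27 over all genes tested. A larger size follows from choosing the 18 by this same difference. The count was 12 with all sums thinned to the smallest and also 12 with shallow nuclei taken from a narrower range of genes per barcode.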

How the results depend on the processing

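The number of genes changed in deep nuclei, 680, was 1841 without a filter on low counts, 1835 with all deposited barcodes, 430 with at least 700 genes per barcode, 401 with DESeq2, 402 with library totals thinned to the smallest, 284 with each nucleus thinned to 500 UMIs, 83 in cluster 1 alone and 416 outside it. It ran from 159 to 891 when single libraries were left out. Of the 159 genes without drought library 1, 123 were among the 680. Limma-voom gave 490 genes, 54.3% of them higher, against 41.5%. The other settings, apart from the replicate block given further on, left the count within 1.5 times. The cause of these differences was not tested.

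The number of genes changed in positive nuclei, 465, was 308 with another random seed, 939 without a filter, 1275 without thinning, and from 255 to 658 with single libraries left out. For UMIs per positive nucleus it was 0, 3 with at least 50 positive nuclei, and 0 in each fit that left out a library (limma, from 43 to 1679 genes at an unadjusted p below 0.05). The count of genes that differed between deep and shallow nuclei, 18, ran from 6 to 14 with single libraries left out. Clusters called for their share, 1, numbered 3 at Leiden resolution 1.0, 3 with called genes not left out, and from 0 to 1 with single libraries left out (edgeR, the single tool run, with 0 to 3 at an unadjusted p below 0.05). The median share of the change carried by the fraction, 96.5%, was 91.9% without thinning and 93.9% for genes with at least 20 positive nuclei in each library. The 457 genes shared with bulk in direction ran from 407 to 487 with bulk libraries left out. PtXaAlbH.16G120100 lost its call with DESeq2 (-2.05) and in cluster 1 alone (-2.31). The other named genes kept direction and call in each of the 18 settings.

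The replicate numbers share only a number, as no label ties them to a batch, and deviations of same-numbered libraries had a correlation of -0.087 across genes. With the replicate block, 1264 genes were called by UMIs, 278 by positive nuclei, 6 by UMIs per positive nucleus and 1 cluster by its share. The drought libraries hold 897 and 591 deep nuclei, so their counts limit what can be detected.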
